A study of Sus scrofa with 16 samples.

Results

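The cartilage-like matrix genes COMP, CHAD, CILP, CILP2, ACAN, SOX9, MGP, VCAN and HAPLN1 were followed by gene symbol in the left ventricle of young pigs after cardiac ischemia/reperfusion (IR) injury. All 9 symbols have an entry among the 22629 genes measured. They were chosen by name, as genes that fibroblasts of a maturing scar are known to share with cartilage. Earlier results of these data were known at that choice, so shares of members set beside all genes are descriptive. Sequenced RNA came from 4 IR pigs (females 2 and 14, males 9 and 11) and 4 sham-operated pigs (females 4 and 5, males 12 and 13), each with a scar zone and a border zone piece, which gave 16 libraries.

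All 8 animals were White Yorkshire-Landrace farm pigs that underwent surgery at 1 month of age, and their hearts were taken 4 weeks later. In IR pigs the left anterior descending artery was occluded for 1 h below its second diagonal branch and then reopened. Sham pigs had the chest opened and the suture placed without occlusion. The paper mentions heparin for the IR pigs and not for the sham pigs. The scar zone was the piece of ventricle just below the occlusion site, and in IR pigs it held neighbouring myocardium as well as scar. The sham piece that carries the name scar came from the same site and was not injured by occlusion, and the border zone was the ventricle next to it. Each zone of each pig is 1 library, so the libraries of a group come from separate animals. In pieces of whole tissue, fewer cells of a type and less RNA per cell cannot be told apart.

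Cartilage resists load because aggrecan, held on hyaluronan by link protein, draws water into a net of collagen, while glycoproteins such as COMP, chondroadherin and the CILP proteins lie between the fibrils and the cells. After a myocardial infarction, fibroblasts first divide and lay down collagen, and in the mature scar of the mouse some of them then take up a resting state in which COMP, CHAD and CILP2 are turned on. SOX9 is the transcription factor that directs cartilage formation and also acts in heart valves, and MGP keeps soft tissue from calcifying.

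Estimated counts summed to between 15427663 and 49045206 per library, so that 3 counts corresponded to between 0.0612 and 0.194 CPM, counts scaled to a common library total. The libraries of male IR pigs 9 and 11 were the deepest, at 33521418 or more. Those of female IR pigs 2 and 14 held at most 21166014, and those of sham pigs 19701606 to 27088652. Among IR pigs, sex and depth thus went together. The scar zone library of IR pig 9 stood apart for these genes, and it is named wherever a value rests on it. That of IR pig 11 shared its high collagen: COL1A1, the main chain of type I collagen, reached 5651 CPM in pig 9 and 9528 CPM in pig 11, against a sham scar zone mean of 1124 ± 234 CPM (SD, n = 4). The scar zone library of pig 14, labelled female, held 4.49 CPM of the Y-linked gene DDX3Y, between the other female libraries (at most 1.23 CPM) and those of males, and values without it are given where they change a call.

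Per transcript length, the 9 genes spanned a wide range of levels. By the median over the 16 libraries of TPM, which scales each gene for transcript length and each library for depth, MGP came first with 155.9 TPM, followed by VCAN with 10.7, CILP with 5.33 and CHAD with 1.34 TPM. The other members lay below 1 TPM, with SOX9 at 0.653, COMP at 0.188, CILP2 at 0.133, HAPLN1 at 0.117 and ACAN at 0.0549 TPM. MGP, whose lowest library held 119 TPM, was above every library of VCAN, whose highest held 53.6 TPM. Every other pair of neighbours in that order overlapped in range. In the scar zone of pig 9 the order was different, because COMP reached 83.4 TPM, CILP2 to 27.8 TPM and ACAN to 11.6 TPM. In the other 15 libraries the highest level was 1.86 TPM for COMP, 0.903 TPM for CILP2 and 0.217 TPM for ACAN. COMP thereby ranked 1036 of all genes by TPM in that library, while its median rank in the other 15 was 14220.

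**Figure D1:**
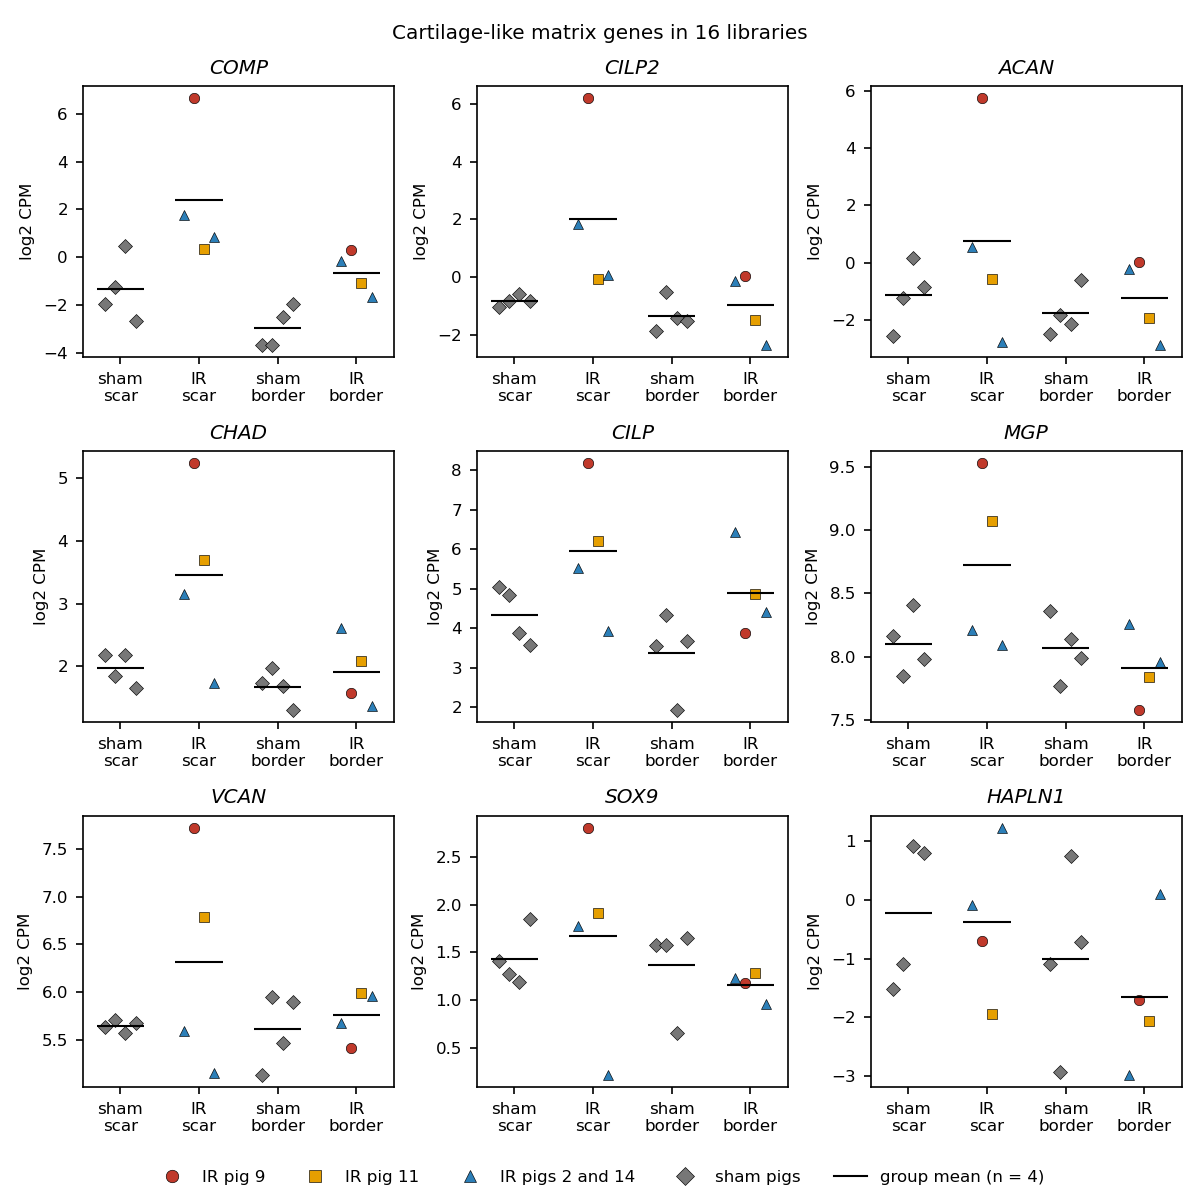
Log2 CPM (vertical axis) of the 9 cartilage-like matrix genes in sham and IR pigs, scar and border zone, with 1 point per library and a line at the mean of 4. The red circle of IR pig 9 lies far above all other points for COMP, CILP2 and ACAN in the IR scar zone, while HAPLN1 shows no such point.

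The scar zone comparison asked which of these genes differed between the injured site and the same site in sham pigs. In edgeR's quasi-likelihood test, 0 of the 14023 genes tested, and thus 0 of the 9 members, passed a Benjamini-Hochberg adjusted p of 0.05 with a 2-fold change, and DESeq2 called 0 of the 6 members for which it gave a p, having given none for COMP, CILP2 and ACAN. At an unadjusted p of 0.05 alone, 6 members passed, against 11.2% of genes. At an unadjusted p of 0.05 with a 2-fold change, 5 of the 9 members were higher in IR pigs, against 2.74% of all genes tested, and 0 were lower, against 0.613%. These were COMP, CILP2, CHAD, CILP and ACAN, and without pig 9 the 3 genes COMP, CILP2 and CHAD passed, against 1.73% of genes. The median log2 fold change was 2.02 over the members and 0.03 over all genes, and 0.46 and 0.01 without pig 9.

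COMP encodes cartilage oligomeric matrix protein, a pentameric thrombospondin that binds collagen in cartilage and tendon. In the IR scar zone it measured 3.35 CPM in pig 2, 1.70 in pig 14, 101 in pig 9 and 1.20 in pig 11. In the sham scar zone it measured 0.181 CPM in pig 4, 0.345 in pig 5, 1.30 in pig 12 and 0.0790 in pig 13. Pig 9 was 30.2-fold above the next library, and pig 11 lay below sham pig 12, so the groups overlapped at that point. The log2 fold change was 5.76 ± 1.65 (SE, unadjusted p = 0.00626, Benjamini-Hochberg adjusted p = 0.438 by edgeR). Without pig 9 it was 2.07 ± 0.78 (SE, unadjusted p = 0.0278 by edgeR), where the 3 remaining IR libraries held 25 to 58 counts and the sham libraries 2 to 36.

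CILP2 encodes a secreted glycoprotein of cartilage and is the close relative of CILP. It was the only member for which all 4 IR scar zone libraries lay above all 4 sham libraries, a pattern that 2.2% of the genes tested showed. Pig 9 held 72.9 CPM, pig 2 held 3.52, pig 14 held 0.953 and pig 11 held 0.868 CPM. The sham libraries were close together, with 0.407 CPM in pig 4, 0.474 in pig 5, 0.578 in pig 12 and 0.474 in pig 13. The gap between the groups was small, since pig 11 at 29 counts stood just above sham pig 12 at 16 counts. The log2 fold change was 5.33 ± 1.50 (SE, unadjusted p = 0.00568, Benjamini-Hochberg adjusted p = 0.438 by edgeR). It was 1.84 ± 0.54 without pig 9 (unadjusted p = 0.00854 by edgeR). Leaving out pig 11 as well, the lowest IR library, gave 2.20 ± 0.52 (unadjusted p = 0.00246 by edgeR). That fit was chosen after seeing the data, and its IR libraries were pig 2 at 61 counts and pig 14 at 14 counts.

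ACAN encodes aggrecan, the large chondroitin sulfate proteoglycan of cartilage. Its IR scar zone levels were 1.39 CPM in pig 2, 0.0681 in pig 14, 53.3 in pig 9 and 0.599 in pig 11. Sham pigs held 0.0904, 0.345, 1.05 and 0.474 CPM in pigs 4, 5, 12 and 13. Apart from pig 9 and pig 2 the IR libraries lay within or below the sham range, and the value of pig 14 is 1 count. The log2 fold change of 4.79 ± 1.68 (SE, unadjusted p = 0.0177, Benjamini-Hochberg adjusted p = 0.438 by edgeR) became 0.46 ± 0.86 without pig 9 (unadjusted p = 0.604 by edgeR). The rise of ACAN in IR scar zone therefore rested on 1 library of 2289 counts.

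CHAD encodes chondroadherin, a leucine-rich repeat protein that links collagen to integrins on chondrocytes. It measured 8.83 CPM in pig 2, 3.27 in pig 14, 37.7 in pig 9 and 12.96 in pig 11, against 4.47, 3.49, 4.48 and 3.08 CPM in sham pigs 4, 5, 12 and 13. Pigs 2, 9 and 11 were above every sham library and pig 14 was within the sham range. Its log2 fold change was 2.02 ± 0.61 (SE, unadjusted p = 0.00822, Benjamini-Hochberg adjusted p = 0.438 by edgeR). It stayed past the unadjusted threshold in all 8 fits that left out 1 pig, from 1.09 without pig 9 to 2.35 without pig 14, and fell to 0.64 ± 0.37 without both pigs 9 and 11 (unadjusted p = 0.122 by edgeR).

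CILP encodes cartilage intermediate layer protein, a matrix protein of fibroblasts and chondrocytes that binds TGF-beta. It measured 46.2 CPM in pig 2, 15.1 in pig 14, 290.7 in pig 9 and 74.6 in pig 11. Sham pigs held 32.6 CPM (pig 4), 28.7 (pig 5), 14.6 (pig 12) and 11.7 (pig 13). As with CHAD, the 3 IR pigs other than pig 14 were above all sham libraries. By edgeR the log2 fold change was 2.28 ± 0.78 (SE, unadjusted p = 0.0161, Benjamini-Hochberg adjusted p = 0.438 by edgeR), and 1.03 ± 0.52 without pig 9 (unadjusted p = 0.0833 by edgeR). With sex as a covariate it was 1.90 (unadjusted p = 0.0716 by edgeR), and with 1 RUVg factor, a term for unwanted variation, it was 1.74 (unadjusted p = 0.0536 by edgeR).

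The remaining 4 members did not reach the 2-fold call. MGP, matrix Gla protein, held 296 CPM in pig 2, 272 in pig 14, 739 in pig 9 and 536 in pig 11, against 286, 229.8, 339 and 253 CPM in sham pigs 4, 5, 12 and 13. Both male IR pigs were above all sham libraries and both female IR pigs were among them. Its log2 fold change was 0.73 ± 0.31 (SE, unadjusted p = 0.0412, Benjamini-Hochberg adjusted p = 0.438 by edgeR), under the 2-fold limit, and 0.39 without pig 9 (unadjusted p = 0.149 by edgeR).

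VCAN encodes versican, a hyaluronan-binding proteoglycan of the developing heart and of wounds. Its sham scar zone libraries were the most even of the members, at 49.3, 51.9, 47.4 and 50.8 CPM in pigs 4, 5, 12 and 13. The IR libraries went both ways, with 211 CPM in pig 9 and 110.7 in pig 11 above that range, 48.0 in pig 2 within it and 35.5 in pig 14 below it. The log2 fold change was 1.02 ± 0.47 (SE, unadjusted p = 0.0585, Benjamini-Hochberg adjusted p = 0.449 by edgeR), just short of the call. It passed the unadjusted threshold at 1.30 without pig 14 (unadjusted p = 0.0096 by edgeR), at 1.25 without pig 2 (unadjusted p = 0.0245 by edgeR) and at 1.03 in 1 fit of all libraries (unadjusted p = 0.0198 by edgeR). It was 0.36 without pig 9 (unadjusted p = 0.311 by edgeR) and -0.26 without pigs 9 and 11 (unadjusted p = 0.124 by edgeR).

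SOX9 measured 3.35 CPM in pig 2, 1.09 in pig 14, 6.87 in pig 9 and 3.68 in pig 11, with 2.57, 2.33, 2.20 and 3.52 CPM in sham pigs 4, 5, 12 and 13. Pigs 9 and 11 were above every sham library and pig 14 below every one. SOX9 had a log2 fold change of 0.51 ± 0.45 (SE, unadjusted p = 0.285, Benjamini-Hochberg adjusted p = 0.633 by edgeR), and of 0.80 without pig 14 (unadjusted p = 0.033 by edgeR), still under the 2-fold limit. In pig 9 SOX9 was 2.59-fold the sham mean, where ACAN was 109-fold and COMP 212-fold the sham mean.

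HAPLN1 encodes the link protein that fixes aggrecan and versican to hyaluronan, and in the pig assembly Sscrofa11.1 it is the coding gene next to VCAN. It measured 0.866 CPM in pig 2, 2.25 in pig 14, 0.536 in pig 9 and 0.180 in pig 11, against 0.271, 0.388, 1.81 and 1.66 CPM in sham pigs 4, 5, 12 and 13. It was the only member not highest in pig 9, and its log2 fold change of -0.21 ± 0.79 (SE, unadjusted p = 0.795, Benjamini-Hochberg adjusted p = 0.918 by edgeR) changed sign when pig 11, 12 or 13 was left out. The values rest on 6 to 50 counts per library.

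**Figure D2:**
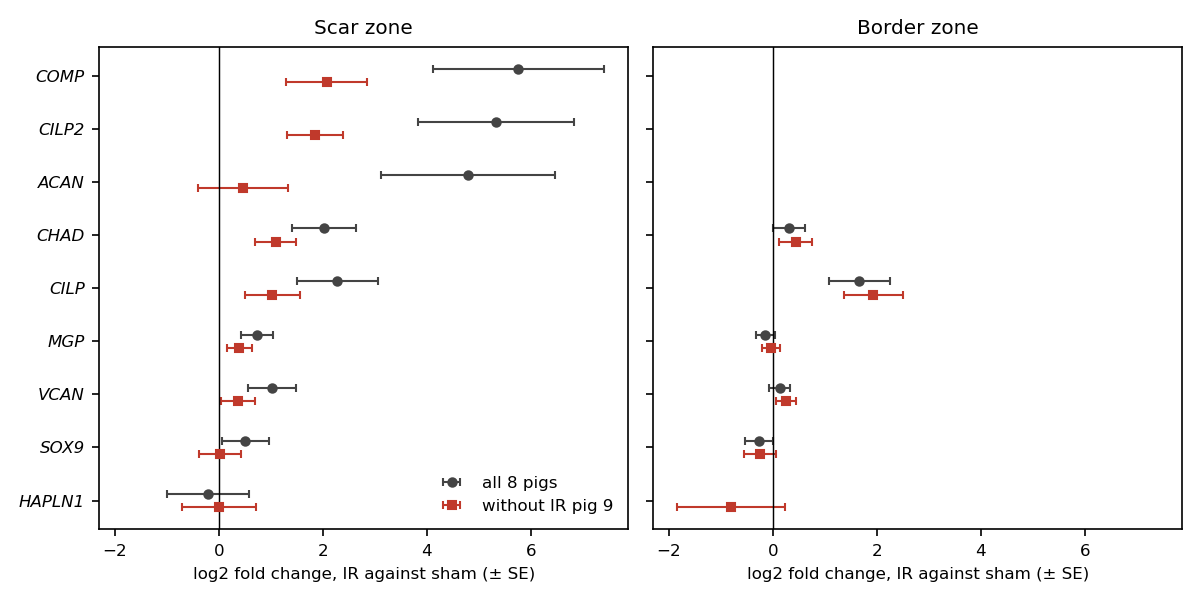
Log2 fold change of IR against sham pigs with its SE (horizontal axis) for each member in either zone, from all 8 pigs (grey circles) and without IR pig 9 (red squares). In the scar zone COMP, CILP2 and ACAN move from 5.76, 5.33 and 4.79 to 2.07, 1.84 and 0.46; members without a point in the border zone were below the count filter of that fit.

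Pig 9's scar zone library was the highest of all 16 for 8 of the 9 members, a position it held for 12.4% of the 14023 genes that passed the scar zone filter. It was at least 2-fold above the next library for 5 members and 0.485% of genes, and at least 10-fold above the next for 3 members and 0.0357% of genes. That last share is 5 genes in all. They were ACAN (38.5-fold), MMP9 (32.3-fold), COMP (30.2-fold), TNN (23.1-fold) and CILP2 (20.7-fold). The other two, named after their values were seen, encode the gelatinase MMP9 and tenascin-N, a matrix glycoprotein of bone-forming and tendon tissue. In its border zone pig 9 showed no such levels, with 1.14 CPM of COMP and 0.939 CPM each of CILP2 and ACAN.

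Fibroblast markers were high in the scar zone of both pigs 9 and 11, whereas COMP, CILP2 and ACAN were high in pig 9. The summed TPM of 9 fibroblast markers (COL1A1, COL1A2, COL3A1, DCN, LUM, PDGFRA, DDR2, POSTN, TCF21) was 9782 in pig 9 and 9993 in pig 11, against 1723 to 2371 in the sham scar zone. By summed CPM it was 24421 in pig 9 and 33203 in pig 11, against 5612 to 7452 in the sham scar zone. Among the collagens, pig 9 held 0.593 times the CPM of pig 11 for COL1A1, 0.538 times for COL1A2 and 0.888 times for COL3A1, but 4.23 times for COL11A1. For ACAN, COMP and CILP2 pig 9 held 89.1, 84.4 and 84.0 times the CPM of pig 11. The ratio was 3.90 for CILP, 2.91 for CHAD, 1.90 for VCAN, 1.87 for SOX9 and 1.38 for MGP. Among other matrix genes, fibromodulin (FMOD), a collagen-binding proteoglycan, had a ratio of 1.58, and periostin (POSTN), a marker of activated fibroblasts, one of 2.64. It was 3.74 for THBS4, 4.65 for CEMIP, a hyaluronan-degrading protein, and 8.17 for SPP1, which encodes osteopontin. For the matrix genes OGN and SPARC pig 9 was lower than pig 11, at ratios of 0.719 and 0.960. In pig 11 the 4 members CHAD, SOX9, MGP and VCAN were above the 14 libraries other than that of pig 9, as were 17.4% of genes. With 1 library on each side, the difference between these 2 pigs has no replicate.

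**Figure D3:**
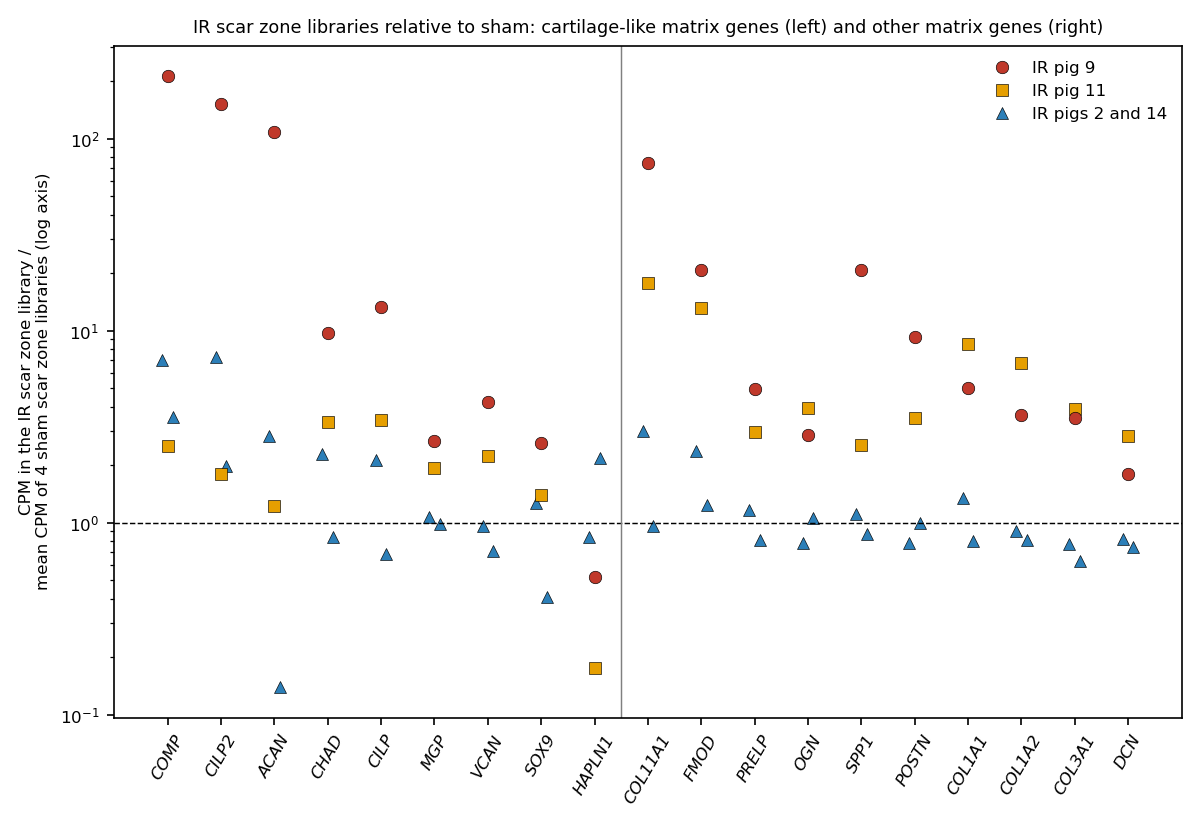
CPM in each IR scar zone library divided by the mean of the 4 sham scar zone libraries (log axis), for the 9 members and 10 other matrix genes; of the blue triangles, pig 2 is drawn to the left and pig 14 to the right. Pig 9 reaches 212, 151 and 109 times the sham mean for COMP, CILP2 and ACAN where pig 11 is at 2.51, 1.79 and 1.22, while for COL1A1 pig 11 at 8.47 lies above pig 9 at 5.03.

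The markers that define chondrocytes were checked in the same libraries. Of 7 such markers 6 have an entry, and COL11A2, MATN1, SNORC and CNMD stayed below 1 TPM in all 16 libraries. COL2A1, the main collagen of hyaline cartilage, depended on the scale. By CPM it was highest in pig 9's scar zone, at 1.21 against 0.302 CPM in the next library, while by TPM it was at 0.519 there, below the 1.55 TPM of a sham scar zone library. MATN3, a cartilage matrilin, was highest in pig 9 on both scales, at 2.00 CPM against 0.545 CPM in the next library and at 2.70 against at most 0.488 TPM. The summed level of the list was 3.59 TPM in pig 9 and 0.694 TPM in pig 11, with 0.3297 to 2.19 TPM in the sham scar zone, where the upper value is mostly COL2A1. The part of chondrocytes in the members' levels was not tested.

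Several other cell type lists were higher in pig 9 than in the sham scar zone, by an amount that depended on the scale. The summed level of 4 tendon markers was 614 TPM, of which THBS4, a thrombospondin of tendon and stressed heart, made up 602.9 TPM, against 30.2 to 68.9 TPM in the sham scar zone and 127 TPM in pig 11. TNMD, a tendon membrane protein, was at 6.93 TPM in pig 9, 0.768 TPM in pig 11 and 0 in all sham scar zone libraries. Leucocyte markers summed to 113 TPM in pig 9 and 87.2 TPM in pig 11, against 25.9 to 57.5 TPM in the sham scar zone, and by CPM the 5 markers in pig 9 were 1.25 to 3.21 times the sham mean. Smooth muscle markers summed to 802 and 774 TPM against 363 to 544 TPM, but by CPM they ranged from 0.81 (RGS5) to 2.00 (TAGLN) times the sham mean in pig 9. Epicardial markers, of which 3 of 6 have an entry, summed to 46.8 TPM in pig 9 and 28.7 TPM in pig 11, against 10.8 to 16.96 TPM, and were 1.59 to 4.07 times the sham mean by CPM in pig 9. Nerve and Schwann markers summed to 6.83 TPM in pig 9 against 1.89 to 3.97 TPM, with 7.79 TPM in another IR scar zone library. Endothelial markers summed to 309 TPM against 261 to 305 TPM, but by CPM were 0.664 to 1.03 times the sham mean. Cardiomyocyte markers summed to 54430 TPM in pig 9, within the sham scar zone range of 45690 to 55710 TPM, but 23340 TPM of that came from PLN alone. By CPM all 7 of these markers were below the sham scar zone mean in pig 9, at 0.457 (TNNI3) to 0.957 (RYR2) times that mean. The part of these cells in the members' levels was not tested.

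The wider cartilage program was covered by 37 other matrix and chondrocyte genes, of which 31 have an entry and 20 were tested in the scar zone. At the unadjusted threshold 5 of the 20 were higher in IR pigs and 0 lower, against 2.74% and 0.613% of all genes, and the median log2 fold change was 0.15 over the list and 0.03 over all genes. FMOD had a log2 fold change of 3.22 ± 0.78 and COL11A1, a collagen chain that limits fibril width, one of 4.58 ± 1.23. The others were MATN4 (1.27 ± 0.36), a matrilin, and the small leucine-rich proteoglycans PRELP (1.30 ± 0.48) and OGN (1.11 ± 0.47), where ± is the SE. Without pig 9, 3 of the list passed, against 1.73% of genes, with FMOD at 2.45 and COL11A1 at 2.84. Unlike COMP, CILP2 and ACAN, FMOD was high in both pigs 9 and 11, at 629 and 399 CPM, against a sham mean of 30.5 ± 4.59 CPM (SD, n = 4).

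Genes that make, bind or cut aggrecan, versican and their sugar chains were counted in the same way. Of 44 hyaluronan and chondroitin sulfate genes, 36 were tested and 1 was higher, CEMIP (log2 fold change 2.05 ± 0.69, SE), a share near the 2.74% of all genes. Of 15 aggrecanases and related proteases and inhibitors, 11 were tested and 1 was higher, ADAMTS20 (2.78 ± 1.15, SE). Without pig 9, CEMIP was at 0.79 (unadjusted p = 0.0673 by edgeR), and ADAMTS20, which was higher in pig 11 (24.2 CPM) than in pig 9 (9.88 CPM), was at 2.70 (unadjusted p = 0.0609 by edgeR).

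Mineral-related genes were counted because MGP guards against calcification. Of 28 such genes, 20 were tested and 4 were higher in the IR scar zone, against 2.74% of all genes. These were BMP7, a bone morphogenetic protein (log2 fold change 2.21), SPP1 or osteopontin (2.65), SPARC or osteonectin (1.19) and the osteoblast transcription factor RUNX2 (1.18). The median of the list was 0.02, and without pig 9 only BMP7 passed, at 2.07, against 1.73% of all genes. SPP1 was then at 0.57, while SPARC at 0.89 and RUNX2 at 0.84 moved less. In these lists no gene was lower in the scar zone at the unadjusted threshold. ALPL, of the mineral list and named after its values were seen, was at 1.86 CPM in pig 9 and 2.125 CPM in pig 11. Its sham scar zone mean was 9.38 ± 1.92 CPM (SD, n = 4), and IR pigs 2 and 14 held 11.95 and 9.46 CPM.

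In the border zone, beside the injury, 5 members passed the count filter and 1 of them was higher in IR pigs at the unadjusted threshold, against 0.517% of the 13728 genes tested. That member was CILP, with a log2 fold change of 1.66 ± 0.59 (SE, unadjusted p = 0.0185, Benjamini-Hochberg adjusted p = 0.988 by edgeR). Its CPM was 86.3 in pig 2, 21.0 in pig 14, 14.7 in pig 9 and 29.3 in pig 11, against 11.6, 19.9, 3.74 and 12.7 in sham pigs 4, 5, 12 and 13. Pig 9, which was the highest library in the scar zone, was here the lowest IR library and the only one below a sham value. Without pig 2 the log2 fold change of CILP was 0.85 (unadjusted p = 0.086 by edgeR).

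COMP in the border zone lay below the filter, and without the filter it was the 1 member of 9 whose IR and sham libraries did not overlap, as for 0.766% of genes. In that fit COMP and CILP were the 2 of 9 members higher at the unadjusted threshold, against 0.843% of genes. COMP measured 0.821 CPM in pig 2, 0.234 in pig 14, 1.14 in pig 9 and 0.392 in pig 11, and 0 CPM in sham pigs 4 and 5, 0.0971 in pig 12 and 0.177 in pig 13. These are 4 to 40 counts in IR pigs and 0 to 4 counts in sham pigs, close to the limit of what these depths can show. Without the filter its log2 fold change was 3.12 ± 0.86 (SE, unadjusted p = 0.00363, Benjamini-Hochberg adjusted p = 0.927 by edgeR), and in 1 fit of all 16 libraries the unadjusted p was 0.126.

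The other members showed smaller differences in the border zone. CHAD had a log2 fold change of 0.31, VCAN of 0.13, MGP of -0.15 and SOX9 of -0.26, with unadjusted p between 0.33 and 0.525 by edgeR. MGP held 192 to 307 CPM in IR pigs and 218 to 329 CPM in sham pigs, and VCAN 42.4 to 63.7 against 34.8 to 61.6 CPM. CILP2 held 0.117 to 0.939 CPM in IR pigs and 0.195 to 0.615 CPM in sham pigs, and ACAN 0.0584 to 0.939 against 0.0973 to 0.576 CPM. HAPLN1 held 0.0483 to 0.993 CPM in IR pigs and 0.0512 to 1.60 CPM in sham pigs. For each of these 7 members IR and sham libraries overlapped. In the border zone the cartilage matrix list had 0 of 20 genes tested higher and 1 lower at the unadjusted threshold, where 0.277% of all genes were lower. That gene was HAPLN4, a link protein of brain, with a log2 fold change of -1.07, and of -0.95 without pig 9 (unadjusted p = 0.057 by edgeR).

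Whether the IR effect differed between zones was tested as an interaction over all 16 libraries. The effect was larger in the scar zone for 2 of the 9 members at the unadjusted threshold, against 1.32% of the 14278 genes tested, and for 0 after adjustment. The 2 were CILP2, with a log2 difference of 4.64 ± 1.83 (SE, unadjusted p = 0.0224, Benjamini-Hochberg adjusted p = 1 by edgeR), and CHAD, with 1.72 ± 0.72 (SE, unadjusted p = 0.0303, Benjamini-Hochberg adjusted p = 1 by edgeR). MGP had an unadjusted p of 0.0319 at 0.89, under the 2-fold limit. With the pig as a block 1 member passed, against 1.56% of genes, namely CILP2 at 3.36 (unadjusted p = 0.0189 by edgeR), and CHAD was at 1.34 (unadjusted p = 0.0601 by edgeR). Without pig 9 none passed, against 0.559% of genes, CILP2 being at 1.60 and CHAD at 0.65, and without pig 14 the count was 4 of 9, against 2.18% of genes. COMP, higher in IR pigs in the scar zone and, without the count filter, in the border zone, had a difference of 2.64 ± 3.08 (SE, unadjusted p = 0.403 by edgeR), and -0.61 without pig 9.

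Within IR pigs, scar zone was compared with border zone of the same hearts. At the unadjusted threshold 4 of 9 members, COMP, CHAD, CILP2 and ACAN, were higher in the scar zone, against 1.69% of the 14170 genes tested, and none passed after adjustment. COMP was the only member with all 4 scar zone libraries above all 4 border zone libraries, as for 1.18% of genes, although the lowest scar value of 1.20 CPM and the highest border value of 1.14 CPM nearly met. With the pig as a block, 5 members passed, against 1.9% of genes, HAPLN1 being added at a log2 difference of 1.38 (unadjusted p = 0.0445 by edgeR). Without pig 9, only COMP (2.09) and CILP2 (2.12) passed, against 0.488% of genes, and without pig 14 the count was 7 of the 8 tested, against 2.61% of genes.

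Pig by pig, COMP, CHAD, CILP2, ACAN and HAPLN1 were higher in the scar zone than in the border zone in 4 of 4 IR pigs, as were 10.7% of genes. For COMP the log2 CPM difference ranged from 1.44 to 6.38, and for CILP2 from 1.41 to 6.16. CHAD ranged from 0.37 to 3.66, ACAN from 0.10 to 5.71 and HAPLN1 from 0.10 to 2.89. The 0.10 of ACAN, in pig 14, is 1 count in each zone. The 0.10 of HAPLN1, in pig 11, is 6 counts in the scar zone against 7 in the border zone. Both differences come from scaling for depth and show no rise in counts. MGP and SOX9 were higher in the scar zone in 3 of 4 IR pigs, and CILP and VCAN in 2 of 4.

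Sham hearts give the background of the site itself. At the unadjusted threshold 0 of 7 members tested were higher in the sham scar zone than in the sham border zone, against 0.029% of the 13803 genes tested, and COMP and ACAN did not pass the filter. With the pig as a block, CILP had a log2 difference of 0.91 ± 0.27, under the 2-fold limit (SE, unadjusted p = 0.00758, Benjamini-Hochberg adjusted p = 0.941 by edgeR). Without the filter COMP was the 1 of 9 members higher in the sham scar zone, against 0.265% of genes, with a log2 difference of 2.67 ± 1.03 (SE, unadjusted p = 0.0243 by edgeR) at 2 to 36 counts against 0 to 4. By direction alone, COMP, CHAD, CILP, CILP2 and HAPLN1 were higher in the scar zone in 3 of 4 sham pigs, where 28% of genes were higher in at least 3, and ACAN, SOX9, MGP and VCAN in 2 of 4. For COMP the mean log2 difference was 1.61 ± 1.62 in sham and 3.06 ± 2.25 in IR pigs (SD, n = 4 each), and 1.96 ± 0.54 in IR pigs without pig 9 (SD, n = 3). For CILP2 it was 0.50 ± 0.56 in sham and 2.99 ± 2.15 in IR pigs, or 1.94 ± 0.50 without pig 9, and there the 4 IR pigs were all above the highest sham pig at 0.83.

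**Figure D4:**
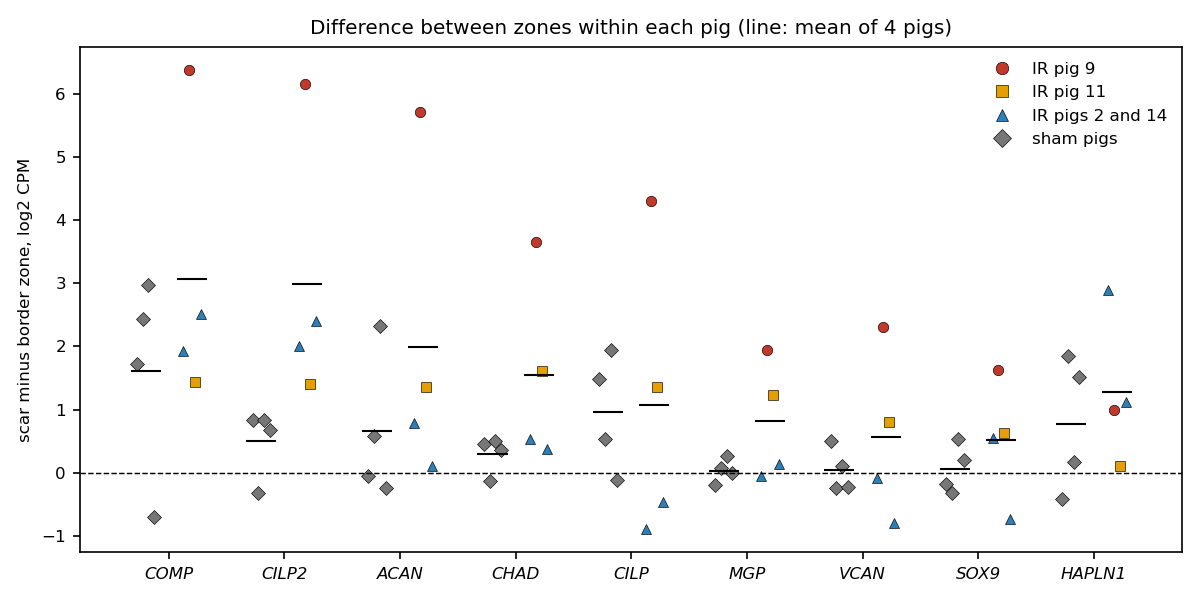
Scar zone minus border zone log2 CPM within each pig (vertical axis) for the 9 members, with sham pigs to the left and IR pigs to the right of each label and a line at the mean of 4. All IR pigs lie above 0 for COMP, CILP2, ACAN, CHAD and HAPLN1. ACAN in pig 14 and HAPLN1 in pig 11 do so by only 0.10, with no higher count in the scar zone. For CILP2 the IR pigs lie between 1.41 and 6.16 where sham pigs lie between -0.33 and 0.83.

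The genes whose log2 CPM was most like that of a member were sought among 10400 genes over the 8 scar zone libraries, by Pearson's r, as a description that rests on points that share surgery group and depth. The first r of each pair given here is over all 8 libraries and the second is over the 7 without pig 9. VCAN was followed by CD9 (0.988, 0.98), PRELP (0.987, 0.97) and SDC2 (0.987, 0.97). MGP was followed by IL17D (0.979, 0.96), MERTK (0.975, 0.94) and MYO1D (0.974, 0.95), and CHAD by ADGRL1 (0.973, 0.97), SLC38A7 (0.971, 0.91) and MAP1A (0.969, 0.91). CILP was followed by TCTN3 (0.977, 0.94), the chondroitin polymerizing factor CHPF (0.971, 0.96) and HSF4 (0.970, 0.93), and SOX9 by GNG8 (0.972, 0.95), ITGA3 (0.964, 0.95) and SCARA3 (0.954, 0.91). HAPLN1 was followed by MBOAT2 (0.970, 0.97), GPN3 (0.949, 0.95) and SUGT1 (0.948, 0.95). COMP was followed by TTLL4 (0.948, 0.83), POLR3C (0.945, 0.86) and CD4 (0.937, 0.90). CILP2 was followed by TTC38 (0.974, 0.81), SLC43A2 (0.953, 0.76) and SGSM2 (0.948, 0.80), and ACAN by GSN, which encodes gelsolin (0.971, 0.93), PENK (0.942, 0.73) and SLC36A1 (0.937, 0.61).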

How the data were processed

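The authors sequenced polyadenylated RNA from stranded libraries. The submitters' processing notes name Trimmomatic 0.33, HISAT2 2.0.5 and kallisto 0.43.1, and the genome build is not given in the sources used here. The authors deposited estimated counts, in which kallisto divides reads among transcripts, and a second table of TPM, scaled for transcript length and depth. Groups and pigs come from the labels, and the scar and border zone of 1 number are the same animal. The deviations of such pairs from their group means correlated at 0.354 to 0.692 over 14278 genes.

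Estimated counts were rounded and tested with edgeR 4.0.16 in R 4.3.3: TMM scaling, filterByExpr (minimum count 10, minimum total 15), the quasi-likelihood test and Benjamini-Hochberg adjustment over the whole table. A call needed an adjusted p of at most 0.05 and a 2-fold change, and calls at the unadjusted p are given beside. The SE is the log2 fold change divided by the square root of F. CPM was scaled by TMM over all 16 libraries, and log2 CPM has a prior count of 2. Alternatives were DESeq2 1.42.0, limma 3.58.1 on log2(TPM + 1) and log2(TPM + 0.1), upper-quartile scaling, no count filter, sex as a covariate, 1 factor of unwanted variation from 5000 control genes (RUVg, written out), 1 fit of all libraries, the pig as a block and leaving out each pig. Leaving out pigs 9 and 11 together was chosen after seeing the data. The edgeR and DESeq2 tests of the scar zone comparison were also run on simulated counts. Those counts held no outlier library, so that check does not cover results that rest on pig 9.

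The members and gene lists were chosen with earlier results of these data known. All members are described. From the 4 lists of matrix, sugar chain, protease and mineral genes, those past the unadjusted p and 2-fold in either zone are named (cell type markers are given as sums), and for likeness the 3 symbols with the highest r among genes of at least 1 TPM in at least 4 scar zone libraries. Genes listed by Ensembl ID are not named.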

Additional observations from a re-analysis of the deposited data

Results flagged for a closer look

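In groups of 4 libraries, the highest or lowest library was checked for a gap to its neighbour above Dixon's 95% critical value, as a share of the group's range, over 36 groups of the 9 members, of which 4 stood out. Chance gives about 1 in 20 groups. In the IR scar zone, pig 9 was far above the others with 101 CPM of COMP (a gap of 0.978 of the range), 72.92 CPM of CILP2 (0.963) and 53.34 CPM of ACAN (0.975). In the sham border zone, pig 12 was far below the others with 1.505 CPM of SOX9 (0.911), which is 31 counts. No other group of a member met this limit, and the 3 gaps of pig 9 come from 1 library and are not independent of each other.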

How the results depend on the processing

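No member passed the adjusted threshold in any comparison under the edgeR, DESeq2 or limma settings that were run, and the smallest adjusted p that DESeq2 gave a member in the scar zone was 0.0524. Of 414 fold changes of members under alternatives, in the comparisons other than scar against border in sham pigs, 404 kept their direction. In sham pigs MGP, SOX9 and VCAN lay near 0 and took both signs with 1 pig left out (-0.06 to 0.12, -0.08 to 0.14 and -0.13 to 0.09). The count of members higher at the unadjusted p moved more. Where no share of all genes is given above for a fit, its count shows only how the calls moved between settings. In the scar zone it was 5, with 2 by DESeq2, which gives no p for COMP, CILP2 and ACAN as count outliers. By limma it was 1 on log2(TPM + 1) and 1 on log2(TPM + 0.1), where only the 4 members CHAD, MGP, CILP and VCAN passed the TPM filter. On log2(TPM + 1) with no filter it was 0. The count was 4 with 1 RUVg factor, 4 with sex as a covariate and 6 in 1 fit of all libraries. Without pigs 9 and 11 it was 2, and with 1 pig left out it was 3 (without pig 9) to 6. In the border zone it was 1, with 2 by DESeq2, 2 with no filter, 2 with 1 RUVg factor and 0 (without pig 2) to 1 with 1 pig left out. For the difference between zones it was 2, with 1 by DESeq2, 1 with the replicate block and 0 to 4 with 1 pig left out (0 without pig 9 or pig 5, 4 without pig 14). For scar against border in IR pigs it was 4, with 1 by DESeq2 and 2 to 7 with 1 pig left out (2 without pig 9, 7 without pig 14), and in sham pigs it was 0, with 1 by DESeq2 and 1 with no filter, COMP in both. The replicate block changed no other count by over 1.5 times.

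Directions turned without pigs 9 and 11 in the scar zone for SOX9 (-0.25), VCAN (-0.26) and HAPLN1 (0.56). With 1 pig left out, HAPLN1 in the scar zone ran from -1.04 to 0.21, VCAN in the border zone from -0.01 to 0.25, CILP in IR scar against border from -0.00 to 2.55, and the zone difference of COMP from -0.61 to 3.76 and of CILP from -0.90 to 1.68. The cause was not tested. COMP, CILP2, ACAN and HAPLN1 hold few counts outside pig 9, and differences there were measured at the edge of these depths.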
